A study of Mus musculus with 8 samples.

Results

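Imprinted genes that lie inside introns of other genes, together with those host genes, were followed in clones of mouse induced pluripotent stem (iPS) cells. The pairs were Mcts2 in H13, Nap1l5 in Herc3, Zrsr1 in Commd1 and Nnat in Blcap, and Inpp5f, which holds an imprinted transcript start of its own, was added. The genes were chosen on the ascorbic acid differences of Mcts2 and H13, which were already known, so differences between the groups are given here as a description and without a test. Every probe set annotated to 1 of these symbols and to no other gene was taken. This gave 17 probe sets for 8 of the 9 genes, out of 18193 genes with a probe set on the array. Zrsr1, a paternally expressed relative of the splicing factor gene Zrsr2, had no named probe set in the annotation used here and was not analysed, so Commd1 stands without its partner.

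RNA was measured on Affymetrix expression arrays, 1 per clone. Ascorbic acid (vitamin C) was present while 4 of the clones were derived and absent for the other 4. All 8 came from embryonic fibroblasts of Col-OKSM mice, in which doxycycline switches on Oct4, Sox2, Klf4 and cMyc, and all were derived on irradiated fibroblast feeders in medium containing serum, LIF and doxycycline. Median signals of the arrays lay between 134 and 156, and the number of arrays limits the precision. Feeders were removed by a preplating step before RNA extraction. Each array reads a mixture of both parental alleles, so allele of origin was not measured, and in such bulk RNA fewer expressing cells and less RNA per cell cannot be told apart.

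Genomic imprinting silences one parental copy of a gene through DNA methylation laid down in the germ line. Mcts2, Nap1l5 and Zrsr1 are retrogenes, intronless copies made from messenger RNA, and Mcts2 and Zrsr1 have their parent genes, Mcts1 and Zrsr2, on the X chromosome. Their promoters are methylated on the maternal copy, and RNA is made from the paternal one. Nnat is a paternally expressed gene with introns of its own. In mouse tissues, H13 transcripts from the maternal copy run past Mcts2 to the last exons, while many from the paternal copy end before it.

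The promoters of the 3 intronic genes with a probe set are shown because germ-line methylation acts on such start regions. The promoter of H13, the host whose level differed most between the groups, is shown beside them for comparison. Sequences run from 250 bases before to 50 after the transcript start and are from RefSeq (GRCm38.p6), which held all 9 genes. Capitals mark TGCCGC or its reverse complement GCGGCA, the letters of the motif that the imprint-protecting protein ZFP57 binds when methylated. Mcts2 lies at chr2:152686898-152687197 on the plus strand, H13 at chr2:152669211-152669510 on the plus strand, Nap1l5 at chr6:58907077-58907376 on the minus strand and Nnat at chr2:157559828-157560127 on the plus strand.
Mcts2: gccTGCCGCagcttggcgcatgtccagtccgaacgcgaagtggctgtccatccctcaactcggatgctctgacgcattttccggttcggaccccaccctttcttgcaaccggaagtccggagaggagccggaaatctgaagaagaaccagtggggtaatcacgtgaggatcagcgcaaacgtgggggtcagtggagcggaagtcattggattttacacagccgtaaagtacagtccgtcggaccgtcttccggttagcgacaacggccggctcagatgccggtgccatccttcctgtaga
H13: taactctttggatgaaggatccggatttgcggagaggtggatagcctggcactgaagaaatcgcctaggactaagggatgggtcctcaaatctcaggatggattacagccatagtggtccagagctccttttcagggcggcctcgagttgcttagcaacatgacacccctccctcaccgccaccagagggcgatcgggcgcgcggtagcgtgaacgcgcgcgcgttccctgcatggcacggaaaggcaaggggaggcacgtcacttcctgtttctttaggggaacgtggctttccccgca
Nap1l5: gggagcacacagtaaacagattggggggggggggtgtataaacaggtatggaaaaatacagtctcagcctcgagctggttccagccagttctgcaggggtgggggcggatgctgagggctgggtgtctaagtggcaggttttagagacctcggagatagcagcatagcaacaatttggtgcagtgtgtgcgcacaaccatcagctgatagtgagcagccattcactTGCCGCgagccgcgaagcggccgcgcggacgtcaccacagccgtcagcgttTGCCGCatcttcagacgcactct
Nnat: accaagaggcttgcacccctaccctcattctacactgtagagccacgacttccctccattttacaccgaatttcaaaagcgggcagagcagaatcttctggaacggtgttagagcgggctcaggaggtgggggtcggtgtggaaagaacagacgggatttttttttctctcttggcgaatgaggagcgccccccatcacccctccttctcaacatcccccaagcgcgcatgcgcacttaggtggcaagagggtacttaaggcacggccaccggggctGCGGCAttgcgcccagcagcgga
Mcts2 and Nnat held 1 match each and Nap1l5 held 2, while H13 held 0. Among the other promoters of the group, 1 of the 2 Commd1 starts held a match, and Zrsr1, Herc3, Blcap and Inpp5f held none. With both strands read, 11.6% of all 32851 promoters of this length held the motif, and of the 10320 with at least 17 CpG, a limit taken from these genes, 26.2% did. The CpG count was 25 in Mcts2, 21 in H13, and 17 each in Nap1l5 and Nnat, against a median of 7 over all promoters. A count of 17 was above that of 68.6% of promoters. Of the others, Zrsr1 had 10, Herc3 4, Inpp5f 15 and Blcap 17, and the 2 Commd1 starts had 18 and 17. No match says only that the letters are not in the window.

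Mcts2 was higher and the brightest probe set of its host H13 lower in the clones derived with ascorbic acid. Mcts2, a relative of the translation re-initiation factor MCTS1, had signals of 1038, 1241, 1543 and 1356 in clones 1 to 4 with ascorbic acid, against 772, 830, 714 and 629 in clones 1 to 4 without. Each of the clones with the supplement was above all of those without. Mean signals were 1295 ± 211 with and 736 ± 85.7 without (SD, n = 4 each). On the log2 scale they differed by 0.79 ± 0.12 (SE).

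H13 encodes signal peptide peptidase, an intramembrane protease. Its brightest probe set, 1417287_at, read 537, 461, 349 and 410 with ascorbic acid, against 731, 597, 733 and 730 without. The groups did not overlap here either, with the clones carrying the supplement all below the others. Mean signals were 439 ± 79.4 with and 697 ± 67.3 without (SD, n = 4 each). The log2 difference was -0.66 ± 0.13 (SE).

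**Figure D1:**
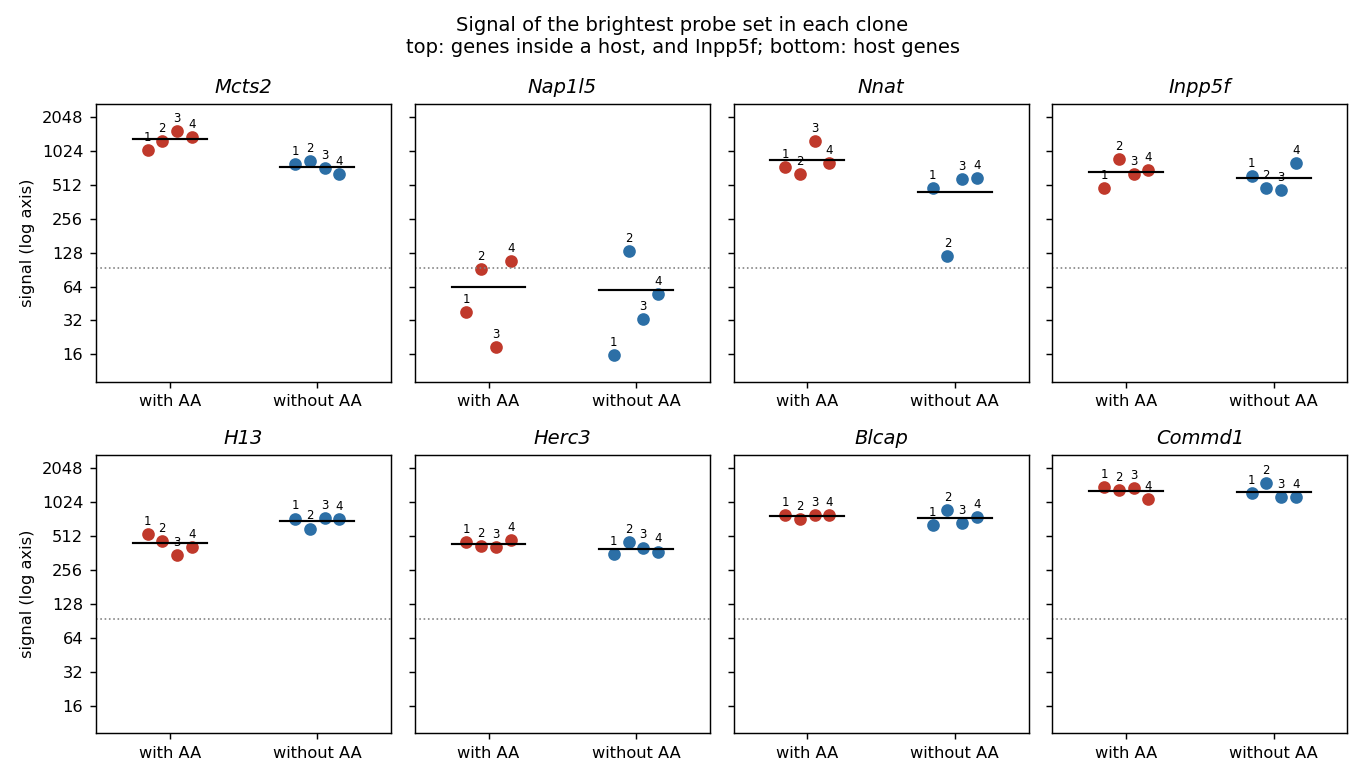
Signal of the brightest probe set of each gene (vertical, log axis) in the 4 clones derived with ascorbic acid (AA, red) and the 4 without (blue). Numbers are clone numbers, bars are group means and the dotted line is the dim limit of 93.7; Mcts2 and H13 separate the groups in opposite directions, and Nnat falls to 119 in clone 2 without ascorbic acid.

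The log2 ratio of Mcts2 to H13, centred over the 8 clones because signals of different probe sets have no common scale, was 0.13, 0.60, 1.29 and 0.89 in clones 1 to 4 with ascorbic acid, against -0.72, -0.33, -0.84 and -1.01 without. The ratio was above the 8-clone mean in every clone with the supplement and below it in every clone without. The group difference in this ratio was 1.45 ± 0.28 (SE, n = 4 each), or 2.74-fold. Clone 1 had the lowest ratio among the clones with ascorbic acid, and clone 2 the highest among those without.

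The other H13 probe sets did not all share the direction of the brightest one. Of the 6, 3 had a log2 difference above 0 and 4 lay under the dim limit, a mean signal of about 93.7 below which the darkest 40% of probe sets fall. The second H13 probe set above that limit, 1455631_at, read 124, 130, 132 and 129 with ascorbic acid, against 154, 154, 117 and 117 without. Its groups overlapped, and its log2 difference was -0.06 ± 0.16 (SE). Of the dim ones, 1438456_at gave 23.1, 50.3, 22.9 and 23.4 with, against 56.3, 55.8, 37.9 and 61.3 without, a log2 difference of -0.61 ± 0.25 (SE). Only clone 2 with ascorbic acid reached into the range of the other group there. The remaining 3 dim probe sets had log2 differences of 0.03, 0.23 and 0.04, each smaller than its SE. The files do not say which H13 transcript end each probe set reads, so the probe sets were not assigned to transcript forms.

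**Figure D2:**
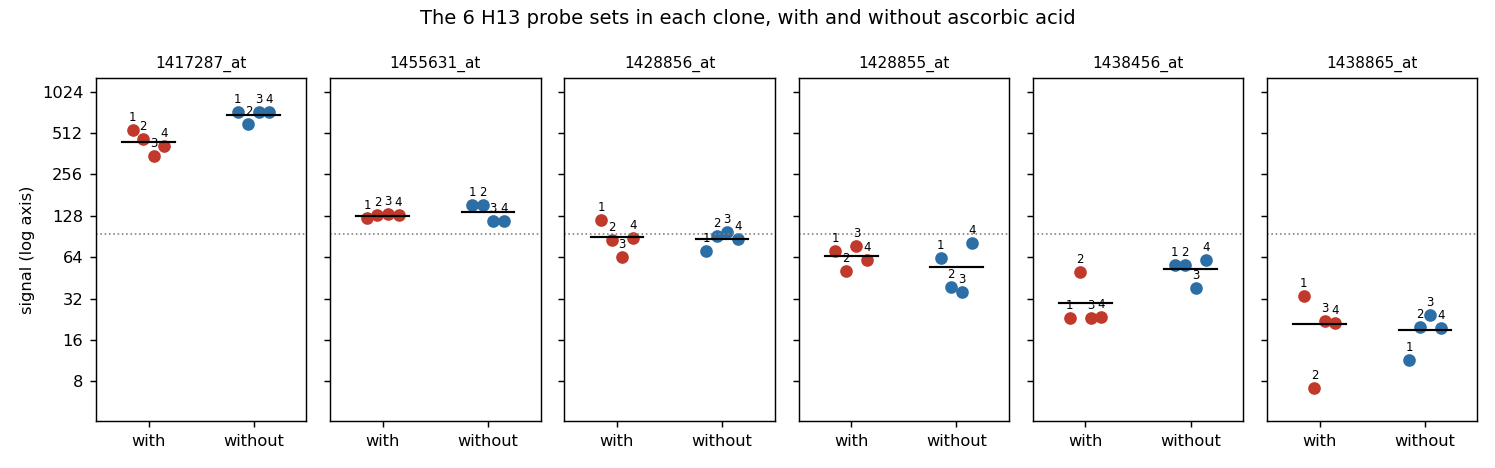
Signals (log axis) of the 6 H13 probe sets in the clones derived with (red) and without (blue) ascorbic acid, ordered by brightness, with clone numbers, group means as bars and the dim limit as a dotted line. The groups separate on 1417287_at and overlap on the other 5.

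Deviations of Mcts2 and H13 inside the groups mostly had opposite signs, but their correlation did not pass the threshold after adjustment. This comparison uses the deviation of each clone from the mean of its group, so the difference between the groups that led to the choice of genes does not enter it. Pearson's r of the deviations was -0.91 over the 8 clones (exact permutation test within groups, two-sided, p = 0.0191; adjusted p = 0.0573 over the 3 pairs that could be compared). Spearman's rho was -0.86 (exact permutation p = 0.0382, adjusted p = 0.0781). The adjusted values do not pass 0.05.

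Among the clones with ascorbic acid the order was complete: clone 3 had the most Mcts2 and the least H13, followed by clones 4, 2 and 1. Without it, clone 2 had the most Mcts2 and the least H13, and the other 3 clones had H13 signals between 730 and 733. Without the 2 clones farthest from the median of Mcts2, clones 1 and 3 with ascorbic acid, r was -0.73 over 6 clones (exact permutation p = 0.229), so the size of the relation rests in part on those clones. Of 13124 tested genes, H13 had the 32nd lowest r of deviations with Mcts2. With the second H13 probe set in place of the brightest, a choice made after the data were seen, r was 0.61 (exact permutation, adjusted p = 0.0521), opposite in sign. With the mean of both H13 probe sets above the dim limit it was -0.48 (exact permutation, adjusted p = 0.309), and with arrays centred on their medians -0.69 (exact permutation, adjusted p = 0.156).

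**Figure D3:**
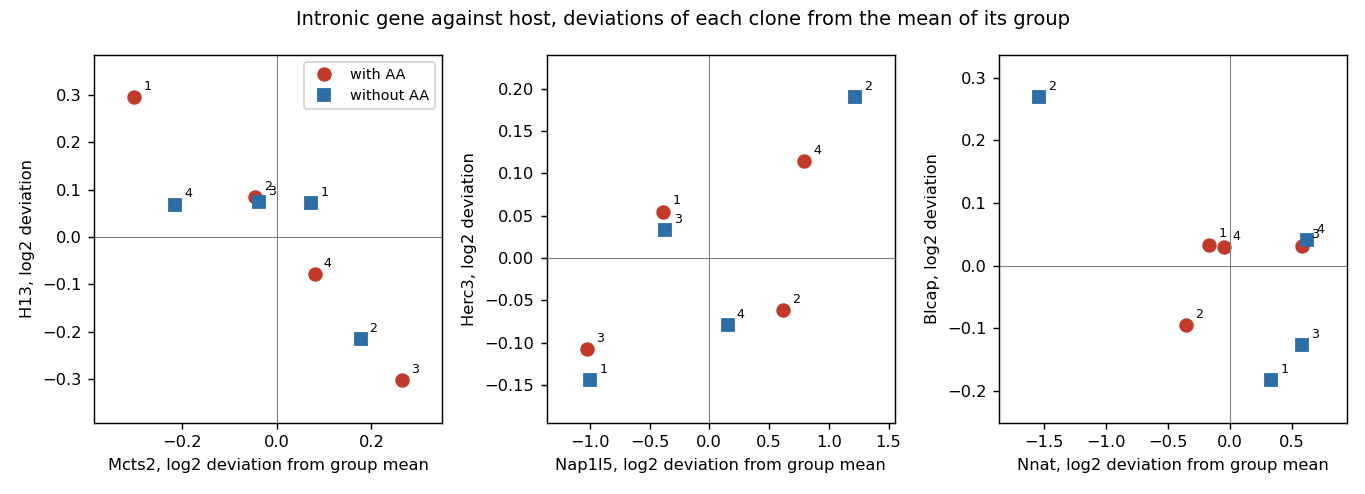
Deviation of each clone from its group mean in log2(signal + 16), for the intronic gene (horizontal) and its host (vertical), in clones with (red circles) and without (blue squares) ascorbic acid, numbered by clone. Mcts2 and H13 fall along a descending line (r = -0.91, or -0.73 without the 2 farthest clones). Nap1l5, which lies under the dim limit, and Herc3 fall along an ascending one (r = 0.72, or 0.17 without the 2 farthest clones). Nnat and Blcap depend on clone 2 without ascorbic acid.

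Mcts1, the X-linked parent of Mcts2, read 2251, 2325, 2547 and 2216 with ascorbic acid, against 2161, 2299, 2220 and 1943 without. These groups overlapped, with a log2 difference of 0.11 ± 0.07 (SE, limma, adjusted p = 0.844). Whether the Mcts2 probe set also reads Mcts1 RNA was not tested.

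Nnat, which encodes neuronatin, a small membrane protein of neural and endocrine cells, varied widely between clones. It read 731, 640, 1237 and 794 with ascorbic acid, against 476, 119, 569 and 586 without. The groups did not overlap, though the gap between 640 with and 586 without was small beside the spread inside each. Mean signals were 850.5 ± 266 with and 437 ± 218 without (SD, n = 4 each). The log2 difference was 1.10 ± 0.40 (SE). Clone 2 without ascorbic acid was far below the rest, and without it the difference was 0.59.

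Blcap, the host of Nnat, first described in bladder cancer, showed no such drop. Its signals were 786, 717, 785 and 784 with ascorbic acid, against 638, 878, 664 and 747 without, and the groups overlapped. Clone 2 without ascorbic acid, the lowest for Nnat, was the highest for Blcap. The log2 difference was 0.08 ± 0.10 (SE), and the group difference in the ratio of Nnat to Blcap was 1.03 ± 0.63 (SE). The within-group r of the pair was -0.67 (exact permutation test, adjusted p = 0.245) with a rho of -0.21 (exact permutation, adjusted p = 0.802). When clone 2 derived without ascorbic acid was left out it changed sign, to 0.51.

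Nap1l5, a member of the nucleosome assembly protein family, was dim. Its probe set read 38.2, 92.1, 18.7 and 107 with ascorbic acid, against 15.9, 132, 33.2 and 54.9 without, an 8.28-fold range whose ends are clones 1 and 2 of the group without. The means were 63.9 ± 42.1 with and 59.0 ± 51.2 without (SD, n = 4 each), and the log2 difference was 0.15 ± 0.51 (SE). At 61.5 its mean over the clones lay under the dim limit, so it was not among the genes tested.

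Herc3, its host and a HECT-type ubiquitin ligase, read 456, 419, 405 and 475 with ascorbic acid, against 356, 453, 405 and 373 without. The groups overlapped on this probe set and on the other one, with log2 differences of 0.14 ± 0.10 and 0.08 ± 0.17 (SE). Nap1l5 and Herc3 deviated together inside the groups, with r = 0.72 (exact permutation test, adjusted p = 0.104) and rho = 0.76 (exact permutation, adjusted p = 0.0781), neither past 0.05. Without clone 3 with and clone 2 without ascorbic acid, the 2 farthest clones, r was 0.17 over 6 clones (exact permutation p = 0.722), so the relation rests on them. The ratio of Nap1l5 to Herc3 differed between the groups by 0.0051 ± 0.57 (log2, SE).

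Commd1, an inhibitor of NF-kappa-B that also acts in copper export, was measured on a pair of probe sets. The brighter, 1424122_s_at, read 1392, 1311, 1357 and 1087 with ascorbic acid, against 1242, 1516, 1127 and 1125 without, and the other, 1424121_at, 1263, 1158, 1119 and 919 with, against 1000.0, 1087, 1070 and 863 without. On both probe sets the groups overlapped, with log2 differences of 0.04 ± 0.11 and 0.14 ± 0.10 (SE).

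Inpp5f, an inositol phosphatase also called SAC2, spread widely among clones of one group on its brightest probe set. That probe set read 475, 856, 642 and 687 with ascorbic acid, against 613, 475, 462 and 800 without. The groups overlapped almost fully, with a log2 difference of 0.18 ± 0.19 (SE). The other 2 probe sets, with mean signals of 151 and 124, differed by -0.08 ± 0.16 and 0.14 ± 0.21 (log2, SE). Which of these read the imprinted short form is not given in the files.

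**Figure D4:**
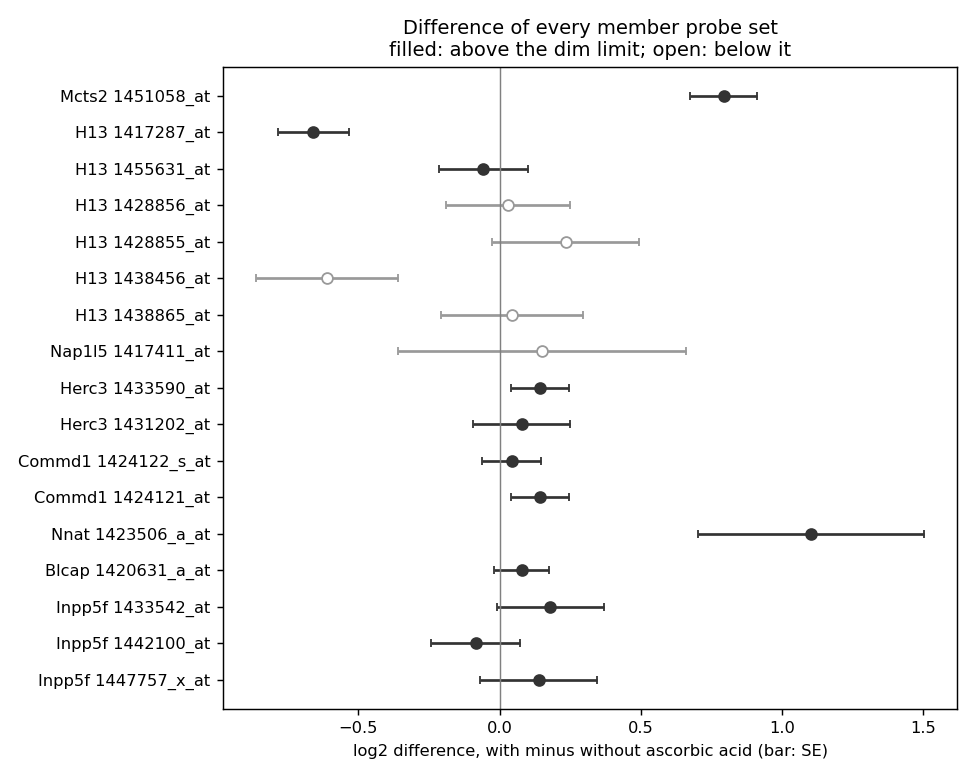
Log2 difference, clones with minus clones without ascorbic acid, for each of the 17 probe sets, with the SE of the fit as bars. Mcts2 (0.79) and Nnat (1.10) lie right of 0 and the brightest H13 probe set (-0.66) left of it, while the other probe sets above the dim limit (filled) lie between -0.08 and 0.18.

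Of the 7 genes tested, 6 had a higher and 1 a lower mean with ascorbic acid. Their median log2 difference was 0.14, against 48.6% higher and a median of -0.0042 over all 13125 tested genes. In 3 of the 7 genes the groups did not overlap, against 3.63% of all genes. Since the genes were chosen with this contrast known, nothing is read from these shares, and no test of it is given for them.

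Among the brightest probe sets of the tested members, the spread between clones of one group was widest in Nnat and Inpp5f. This spread was not used in the choice of genes. The SD of log2 signal within groups was 0.78 for Nnat, larger than in 99.4% of tested probe sets, but its size rests on clone 2 derived without ascorbic acid. Without that clone the SD of Nnat was 0.33, larger than in 87.1% of tested probe sets, and Inpp5f came first among the members with 0.36. With all clones the brightest Inpp5f probe set had 0.35, larger than in 89.4%. On the other Inpp5f probe sets the SD was 0.18 (1442100_at, larger than in 52.5%) and 0.30 (1447757_x_at, larger than in 83.6%). For Mcts2 and H13 it was 0.21 each, close to the probe set median of 0.17. It was 0.18 for Commd1, 0.15 for Blcap (0.089 without the same clone) and 0.13 for Herc3 on their brightest probe sets. The SD of Nap1l5, whose mean signal lay under the dim limit, was 0.90.

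**Figure D5:**
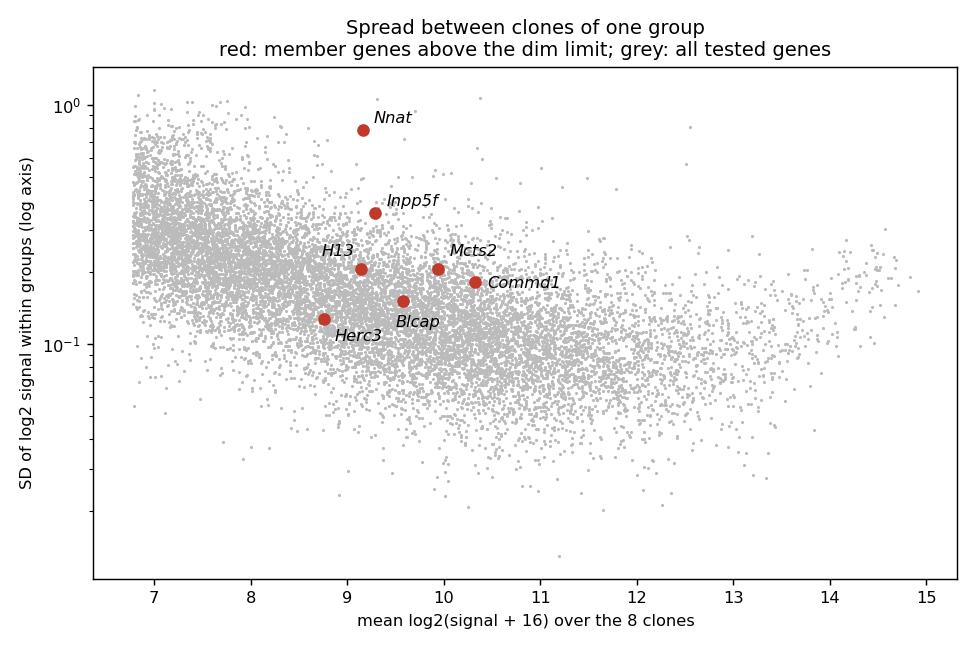
SD of log2 signal within groups (vertical, log axis) against mean log2(signal + 16) over the 8 clones for all tested genes (grey) and the 7 member genes above the dim limit (red, named). Nnat (0.78, or 0.33 without clone 2 derived without ascorbic acid) and Inpp5f (0.35) lie high among genes of their brightness, and the hosts Blcap and Herc3 lie within the main cloud.

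The genes whose levels followed each member most closely over the 8 clones were named by Pearson's r of log2 signals among all tested genes, as a description of these arrays in which the group difference takes part. For Mcts2 they were Elp6 (0.96), Pum3 (0.96) and Brms1l (0.95), and for H13 they were 4930573C08Rik (0.97), Gm15743 (0.96) and Fbxo10 (0.95). For Nnat they were Nhsl2 (0.98), Prmt8 (0.97) and Tbc1d14 (0.96), each also lowest in clone 2 without ascorbic acid. For Inpp5f they were Hcfc1 (0.98), Clstn1 (0.97) and Alg14 (0.96). For Nap1l5 they were Tnfaip1 (0.98), Rpe (0.97) and Pla2g12a (0.96), and for Herc3 Anp32e (0.99), Mrpl44 (0.98) and Trim12c (0.97). For Commd1 they were Klhl13, Nt5e and Creld2 (0.95 each), and for Blcap Usf2, Abi1 (both 0.94) and Mrap2 (0.92). All those named for Commd1, Blcap and Nap1l5 were highest in clone 2 without ascorbic acid. Picked as the highest among all tested genes over only 8 clones, r values can be this large by selection alone, and they were not tested.

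As a group, genes around the hosts lay close to a difference of 0. Of the 50 tested protein-coding genes flanking the 5 loci, 5 on each side in RefSeq order, 23 were higher and 27 lower with ascorbic acid, the median log2 difference was -0.0039 and 0 passed limma's test over all genes (adjusted p under 0.05), which 0.0229% of genes did. The nearest tested neighbours of H13 were 6820408C15Rik, with a log2 difference of -0.23, and Id1, an inhibitor of differentiation factors, with -0.05. Those of Blcap, Src and Ctnnbl1, had 0.04 and -0.08, those of Herc3, Abcg2 and Tigd2, had 0.09 and -0.07, those of Commd1, B3gnt2 and Cct4, had 0.07 and -0.04, and those of Inpp5f, Bag3 and Mcmbp, had -0.11 and 0.02. Non-overlapping groups were seen in 1 of the 50, where the share over all tested genes was 3.63%. That gene was Bcl2l1, a survival factor of the BCL2 family near H13. Its mean signal was 1628 ± 124 in the supplemented clones, against 1372 ± 155 in the others (SD, n = 4 each). For Bcl2l1, limma gave a log2 difference of 0.25 and an adjusted p of 0.759. Tcf15, one of the genes that passed over all genes, lies on the same chromosome as H13 with 7 tested genes between them.

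Other imprinted genes gave a mixed picture. Of 24 tested genes described as paternally expressed, outside these pairs, 10 had higher and 14 lower signals with ascorbic acid, the median log2 difference was -0.05, and 0 passed limma's test. The one with the largest difference was Gab1, a signalling adaptor, at 4507 ± 1007 with and 2903 ± 883 without (adjusted p = 0.757 in limma; SD, n = 4 each). Of 23 tested genes described as maternally expressed, 11 were higher and 12 lower, the median was -0.02, and 2 passed, the noncoding RNAs Meg3 and Rian of the Dlk1-Dio3 domain, with log2 differences of 2.42 and 2.68. The groups did not overlap in 2 paternally and 3 maternally expressed genes that were higher with ascorbic acid, and in 1 of each that was lower. Over all tested genes the share was 3.63%. As the lists were chosen with earlier results known, nothing is read from these counts. Among 16 genes that keep or remove imprints, 10 were higher and 6 lower, and 0 passed. The largest difference was that of Zfp57, whose product binds the motif shown above, at 592 ± 104 with and 721 ± 89.1 without (SD, n = 4 each), -0.29 on the log2 scale (limma, adjusted p = 0.836).

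Relatives of the encoded proteins were divided evenly. Of 34 tested genes from the families of the members' products, 17 were higher and 17 lower. Their median log2 difference was -0.0011 and 0 passed limma's test. The groups did not overlap in 2 that were higher and 1 that was lower, against 3.63% of all tested genes. The largest difference was that of Inpp5e, an inositol phosphatase of the primary cilium, at 0.76 ± 0.28 (log2, SE; limma, adjusted p = 0.770). The X-linked Nap1l2 and Nap1l3 had log2 differences of -0.12 and -0.11 (limma, adjusted p = 0.936 and 0.942). Zrsr2 had no named probe set in the annotation used here.

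Marker genes were read beside these results. All 10 pluripotency markers had mean signals above the dim limit, with a summed signal of 94267 to 113052 with ascorbic acid and 104086 to 117950 without, and 10 of the 10 were lower with it (median log2 difference -0.12, 0 passed; Dppa5a, the largest, at -0.25). Pou5f1 (Oct4), Sox2 and Klf4 are among these 10 pluripotency markers. Whether their signals include RNA from the copies that doxycycline switches on was not tested. Of the fibroblast and feeder markers 13 of 16 were tested, with summed signals of 39073 to 48187 with and 45479 to 49863 without. Of these, 3 were higher and 10 lower (median -0.17, 0 passed; Twist1, the largest, at 0.52). The groups did not overlap in 1 of the 13, against 3.63% of all tested genes. This was Postn, a matrix protein of fibroblasts, with 286 to 357 with ascorbic acid and 389 to 440 without (log2 difference -0.38, limma, adjusted p = 0.749). Of 8 neural markers 6 were tested, with summed signals of 1942 to 2254 with and 1742 to 2154 without, and 5 were higher (median 0.14, 0 passed).

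The largest neural difference was that of Sox1, a factor of early neural cells, with signals of 510, 404, 402 and 422 with ascorbic acid, against 323, 155, 361 and 264 without, a log2 difference of 0.68 (limma, adjusted p = 0.749). Among the 6 tested neural markers the groups did not overlap in Sox1 only, against 3.63% of all tested genes. Like Nnat, Sox1 was lowest in clone 2 without ascorbic acid. Summed without Sox1, the other 5 neural markers gave 1540 to 1832 with and 1535 to 1792.5 without, and 1587 in that clone, which was not the lowest. No listed marker with a probe set was at 0, and the lowest, Neurog2, read 4.36 to 12.3. The part of these cell types in the results on Mcts2, H13 and Nnat was not tested.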

How the data were processed

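The authors deposited linear signal intensity values per probe set for 8 arrays. The submitters' processing notes name GCOS, with settings not given in the sources used here. On every array, the mean after trimming 2% at each end is 500. Groups and clone numbers are from the labels, which call the clones biological replicates without naming separate embryos, so p-values reflect clone-to-clone spread, which may be technical. Array controls (64) were left out. Array medians spanned 0.199 log2, just under the limit of 0.2 log2 set for keeping the deposited scaling, so it was kept. Above that limit arrays would have been centred on their medians, and results of that setting are given in the last section.

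Values were log2(signal + 16), which understates differences of dim genes. The dimmest 40% of probe sets were not tested, and the brightest probe set stood for a gene. Values of dim probe sets come from a fit without this filter. Differences, with minus without ascorbic acid, were fitted with limma 3.58.1 (eBayes with trend, R 4.3.3) and tested two-sided; p-values were adjusted after Benjamini-Hochberg. Within-group correlations were tested by all 576 permutations of clones inside the groups. The fit and the permutation test were tested on simulated data. Genes named outside the members are, per list, those past the threshold or else the one with the largest difference, besides X-linked relatives, nearest flanking genes and the 3 most alike genes; Bcl2l1, Tcf15 and Postn were named after their values were seen. Members and lists were chosen with earlier results of these data known. In the main fit, clone numbers were not used to pair the clones. The labels do not say whether clones of the same number belong together.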

Additional observations from a re-analysis of the deposited data

Results flagged for a closer look

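In 34 sets of 4 clones, 1 per probe set and group, 3 (8.82%) held a clone far from the rest, where chance gives about 5%. On 1417287_at of H13, clone 2 derived without ascorbic acid had 597, while the other 3 of its group had 730 to 733. This clone also had the most Mcts2 of its group. On the dim H13 probe set 1438456_at, clone 2 derived with ascorbic acid had 50.3 and the others of its group 22.9 to 23.4. The same clone had 717 for Blcap, and the others of its group 784 to 786.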

How the results depend on the processing

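Scaling and pseudocount left most values within the spread between clones. Leaving out a single clone moves a group difference by less than that spread whatever the data. Staying within it is therefore no sign of stability there, and the ranges are given instead. The Mcts2 difference was 0.76 to 0.83 under the other scalings and pseudocounts and 0.71 to 0.89 when clones were left out. Mcts2 had only 1 probe set, so the probe set choices could not move its difference. For H13 the range with clones left out was -0.76 to -0.56, and the mean of its probe sets above the dim limit gave -0.36. Leaving out clones gave 0.59 to 1.31 for Nnat, 1.26 to 1.65 for the Mcts2 to H13 ratio and 0.42 to 1.26 for the Nnat to Blcap ratio. For Commd1 the range was -0.0048 to 0.14 and for Nap1l5 -0.18 to 0.55, so these had no stable direction. The number of genes passing was 3, and 1 without the intensity trend and 1 with robust estimation; for probe sets it was 13, and 8 without the trend. With the clone number as a replicate block, 3 genes and 11 probe sets passed; same-numbered clones had correlations of deviations of -0.17 to 0.01. With clones left out, 2 to 4 genes and 10 to 15 probe sets passed. The within-group r of Mcts2 and H13 was -0.96 to -0.82 with clones left out (adjusted p 0.0417 to 0.229), past the threshold only when clone 1 derived without ascorbic acid was left out. It was also past it without probe sets of the _s_at, _x_at and _a_at classes (r = -0.91, exact permutation, adjusted p = 0.0382), where only 2 pairs are left to adjust over. It was -0.69 under median centring (exact permutation, adjusted p = 0.156) and -0.48 with the mean of the H13 probe sets above the dim limit (exact permutation, adjusted p = 0.309). With the second H13 probe set it was 0.61, and the cause was not tested. For Nap1l5 and Herc3 it was 0.50 to 0.86 with clones left out and 0.85 under median centring (exact permutation, adjusted p = 0.0469), 0.50 when a gene was averaged over its probe sets above the limit (exact permutation, adjusted p = 0.309) and 0.17 without the 2 farthest clones. For Nnat and Blcap it was -0.79 to 0.51 with clones left out, and 0.29 without the 2 farthest clones. The SD of Nnat within groups was 0.33 to 0.86 with clones left out, chosen after the data were seen. Nap1l5 and 4 H13 probe sets lay under the dim limit, which limits what they show.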
